A study of Mus musculus with 9 samples.

Results

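The collagen genes of the mouse were followed through 9 peak lists from fat cells, to see where the transcription factor Ets1, the active chromatin mark H3K27ac and open chromatin were found at these genes, and how that differed between temperatures and Ets1 genotypes. The rule took protein-coding genes of the GENCODE M21 annotation whose symbol begins with Col, a number and the letter a. It matched 45 of 21938 genes. Col4a3bp, which matches by its letters only, encodes a ceramide transfer protein and was set aside, leaving 44 collagen genes, of which 11 are fibrillar, 8 belong to the basement membrane and 25 are of other kinds.

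Collagens are secreted proteins of 3 chains wound into a triple helix. Fibrillar collagens (types I, II, III, V, XI, XXIV and XXVII here) assemble into the cable-like fibrils that give fat tissue its strength. Type IV collagens form the sheet-like network of the basement membrane that surrounds every fat cell, and types XV and XVIII are proteoglycan collagens of the same zone. In fat tissue, fibroblast-like progenitor cells are known as a major source of the fibrillar chains. Ets1 belongs to the ETS family of factors, which bind DNA at a GGAA core.

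The libraries were made by CUT&Tag for Ets1 and for H3K27ac, an acetylation on a histone tail that accompanies active regulatory DNA, and by ATAC-seq, which marks open chromatin. Ets1 was mapped in wild type C57 mice, in mature adipocytes of inguinal white fat kept at room temperature (RT) or after cold stress for 7 days (CS), and in beige adipocytes that were differentiated in culture for 6 days from the stromal vascular fraction (SVF) of male mice of 3 to 4 weeks. H3K27ac was mapped in adipocytes of EA+/+ mice, in which an Ets1 transgene behind a loxP-flanked stop is switched on by an adiponectin-driven Cre, of their EC+/+ controls, which carry the same transgene without Cre, of EAKO mice, in which floxed Ets1 is removed by the same Cre, and of their Flox controls, which carry the floxed allele without Cre. ATAC-seq covered Flox and EAKO. Apart from the culture, all cells were mature adipocytes collected by density gradient centrifugation from male mice of 8 to 10 weeks, and the adiponectin promoter limits either Cre effect to adipocytes. Each group has 1 library, so no difference below has a replicate check or a test. Whether animals were pooled for a library is not given in the sources used here. Each list holds peaks called at a q value below 0.05, from 4056 peaks (Ets1, RT) to 88977 (ATAC, Flox), and holds no read counts. The read totals that the study states were not used here. Intervals below are 95% Wilson intervals and cover counting error only.

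Markers of the labelled cell type were checked first. Of 10 adipocyte markers, 5 had a promoter peak in Flox H3K27ac and 6 in Flox ATAC, but Adipoq, Cidec and Cfd, genes that mature adipocytes use heavily, had none in any of the 9 lists. Peaks were still called elsewhere around these genes. Around Adipoq there were 6 in Flox H3K27ac and 7 in Flox ATAC. Of 10 markers of adipose stem and progenitor cells, 9 had a promoter peak in each of the H3K27ac lists of Flox and EAKO and in each ATAC list, against 6 in EC+/+ and 4 in EA+/+. Of all genes, 63.9% had a promoter peak in Flox H3K27ac and 60.5% in EAKO H3K27ac. The shares of all genes were 67.7% in Flox ATAC, 66% in EAKO ATAC, 52% in EC+/+ and 50.4% in EA+/+. The peaks around these progenitor markers summed to 70 in Flox and 64 in EAKO H3K27ac, to 65 and 56 in ATAC, and to 18 in EC+/+ and 24 in EA+/+. Those around the 10 adipocyte markers summed, in the same order, to 47 and 46, to 61 and 55, and to 32 and 43. Markers of endothelial cells (5, 5, 5 and 4 of 6), mural cells (4, 4, 5 and 4 of 6), macrophages (2, 1, 2 and 2 of 6) and Schwann cells (4, 3, 4 and 5 of 6) also had promoter peaks in Flox H3K27ac, EAKO H3K27ac, Flox ATAC and EAKO ATAC. The macrophage counts are below the shares of all genes, and lists of 6 genes are too short to place the others. Since collagens are also progenitor genes, the part of such cells in the results was not tested. In bulk samples like these, fewer cells of a type and less signal per cell cannot be told apart. The Ets1 gene itself was not used as a check of the genotypes. Its whole window held 18 ATAC peaks in Flox and 17 in EAKO, and the floxed exons were not looked at apart.

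A promoter peak here is a peak that overlaps, by at least 1 bp, the window of 1 kb on each side of any annotated transcription start site (TSS). Its strength is the highest −log10 q among such peaks, which is comparable within a list only, so it is also given as a percentile among all protein-coding genes that have a promoter peak in that list.

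The Ets1 peaks at collagen promoters are shown first as sequence, because they are the places where the factor was found. The lines below give the summit base with 100 bp on each side in beige adipocytes for 6 of the promoters, 1 window per gene, from the GRCm38 genome on the gene's sense strand, 5′ to 3′, cut to the longest stretch outside annotated untranslated regions. Capitals mark each GGAA core on either strand (read as TTCC on the other). The shared window of Col4a1 and Col4a2 lies in untranslated sequence and is not shown.
Col1a1, chr11:94936098-94936223: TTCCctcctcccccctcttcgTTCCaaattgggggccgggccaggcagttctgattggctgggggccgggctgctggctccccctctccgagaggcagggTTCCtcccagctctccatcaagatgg
Col5a1, chr2:27886213-27886413: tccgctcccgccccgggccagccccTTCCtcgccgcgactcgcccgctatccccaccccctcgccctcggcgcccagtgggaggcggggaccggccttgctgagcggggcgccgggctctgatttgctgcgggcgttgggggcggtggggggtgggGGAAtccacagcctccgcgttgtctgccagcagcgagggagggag
Col7a1, chr9:108982715-108982915: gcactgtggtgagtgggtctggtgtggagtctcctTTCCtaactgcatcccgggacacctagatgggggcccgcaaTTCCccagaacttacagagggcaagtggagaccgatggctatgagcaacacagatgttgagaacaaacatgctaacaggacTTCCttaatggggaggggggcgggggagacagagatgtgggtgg
Col1a2, chr6:4505370-4505492: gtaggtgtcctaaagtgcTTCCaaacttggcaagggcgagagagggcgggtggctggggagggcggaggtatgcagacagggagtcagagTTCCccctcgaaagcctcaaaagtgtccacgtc
Col5a3, chr9:20815068-20815194: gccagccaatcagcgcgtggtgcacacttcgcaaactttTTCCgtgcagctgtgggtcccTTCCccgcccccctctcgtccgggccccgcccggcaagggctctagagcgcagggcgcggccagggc
Col18a1, chr10:77113947-77114079: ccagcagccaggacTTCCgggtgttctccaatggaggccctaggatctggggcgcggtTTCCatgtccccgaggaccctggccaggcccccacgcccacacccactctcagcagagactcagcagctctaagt

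These windows were taken from those with a −log10 q of 9.71 or more that kept over 100 bases, and they hold 2 or 3 cores each. Those of Col7a1, Col1a2 and Col18a1 lie at annotated start sites inside the gene, not at its 5′ TSS. The cut stretches of Col6a1 and Col6a2, of 51 and 54 bases, hold none, and that of Col16a1, of 80 bases, holds 1. The core is common: over the full summit windows, 16 of the 18 Ets1 peaks at collagen promoters in beige adipocytes hold it (88.9%), beside 86.7% of all promoter peaks of that list. The shares of longer ETS letters were further apart. CCGGAA, searched on both strands, lies under 1 of the 18 peaks (5.56%), the Col18a1 summit printed above, beside 21.2% of all promoter peaks. AGGAAG, also searched on both strands, lies under 8 of the 18 (44.4%), beside 22% of all promoter peaks. Among the printed stretches it is the longer form at Col5a1 and Col7a1. Around the start sites themselves, whether bound or not, in the 300 bases around the 5′ TSS, from 250 before it, CCGGAA was in 0 of 44 collagen promoters and in 17.5% of all 21938, and AGGAAG was in 16 of 44 (36.4%) and in 34.6% of all. Fibrillar genes held AGGAAG in 7 of 11 promoters (63.6%). Letters in a window are a description and not a binding site.

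Ets1 at collagen promoters was found mainly in the cultured beige adipocytes. At room temperature no collagen promoter had an Ets1 peak (0 of 44, interval 0 to 8.03%), where 4.06% of all protein-coding genes had one. After cold stress 3 of 44 had one (6.82%, interval 2.35 to 18.2%), beside 32.7% of all genes. In beige adipocytes 16 of 44 had one (36.4%, interval 23.8 to 51.1%), beside 46.4% of all genes. The share of collagen promoters with Ets1 was therefore below that of all genes in each of the 3 lists, and for cold stress the interval lies wholly below it. Counted at the 5′ TSS alone, 13 collagen genes had a peak in beige adipocytes. The peaks of Col7a1, Col18a1 and Col6a5 lie at annotated start sites inside the gene. The share of all genes on that count is not given here.

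**Figure D1:**
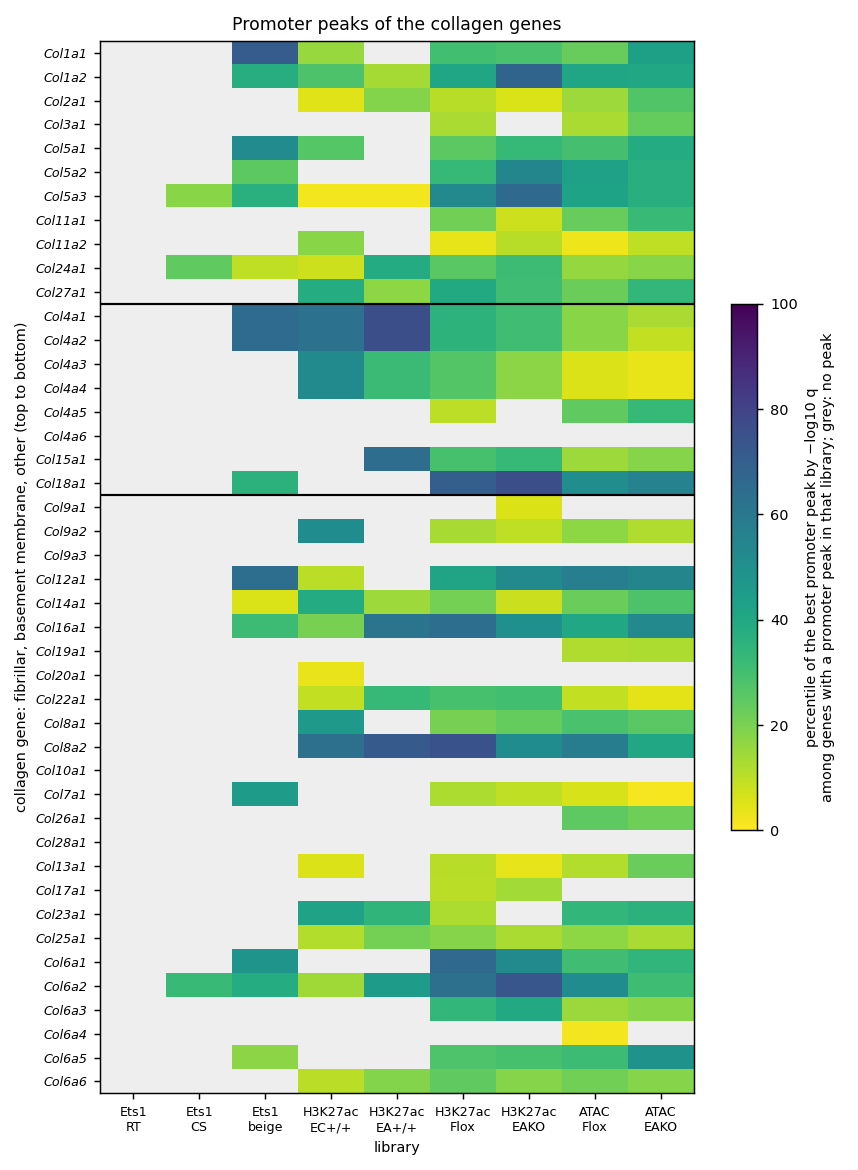
Promoter peaks of the 44 collagen genes (rows, in 3 blocks: 11 fibrillar, 8 basement membrane, 25 other) in the 9 libraries (columns). Colour gives the percentile of the gene's best promoter peak by −log10 q among all genes with a promoter peak in that library, and grey means no peak. The Ets1 columns have 0 coloured rows at RT, 3 in CS and 16 in beige adipocytes, and the ATAC columns fill in 37 and 36 rows.

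Among the fibrillar genes, Ets1 in beige adipocytes was at the promoters of 6 of 11 (54.5%). Col1a1 and Col1a2 encode the chains of type I collagen, the main fibril protein. Col1a1 had the strongest collagen promoter peak of the list, at a −log10 q of 26.7 (percentile 70.8), with its summit 26 bp before the TSS. Col1a2 had a −log10 q of 10.2 (percentile 37.7), 51 bp before an annotated start site inside the gene. That peak still lies within 1 kb of the 5′ TSS. All 3 type V genes, whose chains start and limit the width of type I fibrils, had a peak, at a −log10 q of 15.1 for Col5a1, 7.01 for Col5a2 and 9.89 for Col5a3. Col24a1, a minor fibrillar chain, had weak ones, at 3.76 at a start site inside the gene and at 1.46 near its 5′ TSS. Col2a1, the cartilage collagen, Col3a1, Col11a1, Col11a2 and Col27a1 had none in any Ets1 list. Col3a1, the partner of type I in soft tissue, had 2 Ets1 peaks elsewhere in its window in beige adipocytes.

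Among the basement membrane genes, Ets1 in beige adipocytes was at 3 of 8 promoters (37.5%). Col4a1 and Col4a2, the chains of the common type IV network, are transcribed away from each other from start sites 21 bp apart, and they share 1 Ets1 peak at a −log10 q of 22.6 (percentile 65.2). They therefore do not count as independent genes. Col18a1, whose end fragment is endostatin, had a peak at 9.71, at a start site inside the gene. Col4a3 and Col4a4, a pair with start sites 72 bp apart, Col4a5, Col4a6 and Col15a1 had none.

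Among the other collagens it was at 7 of 25 (28%). The fibril-associated chains Col12a1 (−log10 q 21.6), Col16a1 (8.50) and Col14a1 (2.62) had a peak, as did Col7a1 (12.3), the anchoring fibril collagen, and the beaded-filament genes of type VI, Col6a1 (13.8), Col6a2 (10.3) and Col6a5 (5.27). The peaks of Col7a1 and Col6a5 lie at start sites inside the gene. Col6a3, the third main type VI chain, whose fragment endotrophin is known from fat tissue, had none. No collagen promoter ranked above Col1a1 at percentile 70.8, and the median percentile of the 16 was 37.9, where 50.0 is the middle of all genes.

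All 16 genes also had a promoter peak in Flox ATAC and in Flox H3K27ac, which come from other mice and from tissue adipocytes. That counts genes with any promoter peak, which the Ets1 peak need not touch. Of the 18 Ets1 peaks at these promoters, 17 met a Flox ATAC peak (94.4%) and 16 a Flox H3K27ac peak (88.9%). Of all promoter Ets1 peaks of the beige list, 95.6% met a Flox ATAC peak and 91.4% a Flox H3K27ac peak. The converse does not hold, since 21 further collagen promoters open in Flox had no Ets1 peak in beige adipocytes. Over all genes 14858 promoters were open in Flox and 10182 had Ets1 in beige adipocytes. Open promoters without Ets1 were therefore not particular to collagens.

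The comparison of cold stress with room temperature asks whether Ets1 moved to or from collagen genes in the cold. The 3 promoters found after cold stress were all absent at room temperature: Col6a2 at a −log10 q of 3.97 (percentile 32.5), Col24a1 at 3.48 (percentile 24.3) and Col5a3 at 2.92 (percentile 17.8). All 3 are weak, and the nearest room temperature peak lay 58.2 kb, 572.3 kb and 63.7 kb away. Over all genes with a promoter peak in either list, 10.9% had it in both, 87.8% after cold stress alone and 1.29% at room temperature alone, so peaks seen only in the cold were the rule. The room temperature list is the shorter, at 4056 peaks against 14858. When the best 4056 peaks of each list were compared, no collagen promoter was left in the cold (0 of 44).

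Around the collagen genes (gene body plus 20 kb on each side) there were 11 Ets1 peaks at room temperature and 43 after cold stress. Of the 43, 40 met no room temperature peak (93%, interval 81.4 to 97.6%), beside 89.3% of cold-stress peaks around all genes. Of the 11, 8 met no cold-stress peak (72.7%, interval 43.4 to 90.3%), beside 49.5%. At room temperature 9 of the 11 lay in introns and 2 between genes, and none met a Flox ATAC peak (0 of 11, interval up to 25.9%), where 24.3% of all peaks of that list did and 8.27% of those outside promoters, as all 11 were. Of the 11, 6 met a Flox H3K27ac peak (54.5%, interval 28.0 to 78.7%), beside 47.2% of all peaks of that list and 36.5% of those outside promoters. None of the 11 was near a fibrillar gene.

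In the cold, 11 of the 43 peaks (25.6%) lay in the promoter of another gene that happens to sit beside a collagen gene. The strongest of all, at a −log10 q of 13.8, is at the promoter of Mff, a mitochondrial fission factor next to Col4a3. Those at the promoters of Uqcrc1 (6.86) and Pfkfb4 (5.05), beside Col7a1, encode a subunit of respiratory complex III and a regulator of glycolysis. Peaks around a collagen gene are therefore not all peaks of that gene.

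The comparison of beige with cold-stressed adipocytes sets a culture beside tissue, and they differ in age, cell source and treatment at once. Of 16 collagen promoters with Ets1 in either list, 3 had it in both (18.8%), beside 58.9% over all genes, and 13 in beige alone (81.2%, interval 57.0 to 93.4%), beside 34.3%. None had it in cold stress alone, beside 6.8%. The 13 are all the genes named above except Col5a3, Col6a2 and Col24a1. At Col5a3 the promoter counts as shared, but the cold-stress peak, 469 bp into the gene, and the beige peak at the TSS did not touch. At Col24a1 the beige peak that met the cold-stress one is the weaker, at 1.46. With the best 14858 peaks of either list, 11 promoters were in beige alone and 1, Col24a1, in cold stress alone.

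Around the collagen genes beige adipocytes had 160 Ets1 peaks, of which 145 met no cold-stress peak (90.6%, interval 85.1 to 94.2%), beside 75.3% around all genes. Of the 43 cold-stress peaks, 28 met no beige peak (65.1%, interval 50.2 to 77.6%), beside 47.6%. Of the 160, 84 lay in introns, 29 between genes, 11 over exons, 18 at collagen promoters and 18 at promoters of other genes.

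The strongest Ets1 peaks around collagen genes in beige adipocytes were not at promoters. The leading pair is printed because it holds the largest −log10 q outside any promoter (chosen after the values were seen), again as the summit with 100 bp on each side, on the sense strand, with each core in capitals.
Col4a2, intron, chr8:11382699-11382899: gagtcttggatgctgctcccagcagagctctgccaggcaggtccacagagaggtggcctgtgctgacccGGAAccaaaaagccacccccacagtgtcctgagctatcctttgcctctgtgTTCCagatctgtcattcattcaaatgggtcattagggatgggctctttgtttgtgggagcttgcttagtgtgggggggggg
Col1a1, upstream, chr11:94928846-94929046: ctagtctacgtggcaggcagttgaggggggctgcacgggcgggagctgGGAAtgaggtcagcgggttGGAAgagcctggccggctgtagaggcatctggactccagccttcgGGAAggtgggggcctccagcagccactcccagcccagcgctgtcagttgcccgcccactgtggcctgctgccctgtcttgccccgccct

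The Col4a2 peak, 70.0 kb into the gene, had a −log10 q of 80.2 (percentile 97.9 among all peaks of the list). No Ets1 peak was there at room temperature or in the cold. It was open and acetylated in Flox (−log10 q 83.4 in ATAC and 38.3 in H3K27ac) and in EAKO (63.2 and 30.8), and acetylated in EC+/+ (4.97) but not in EA+/+.

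The Col1a1 peak, 7.28 kb before the TSS, had a −log10 q of 75.9 (percentile 97.6) and was also an Ets1 peak in the cold, at 12.2 (percentile 93.8 of that list), with none at room temperature. The same place had an H3K27ac peak in EC+/+ (6.24), Flox (59.3) and EAKO (59.2), none in EA+/+, and an ATAC peak in Flox (92.6) and EAKO (54.1). It was thus the strongest Ets1 site in the cold around a collagen gene outside a promoter.

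**Figure D2:**
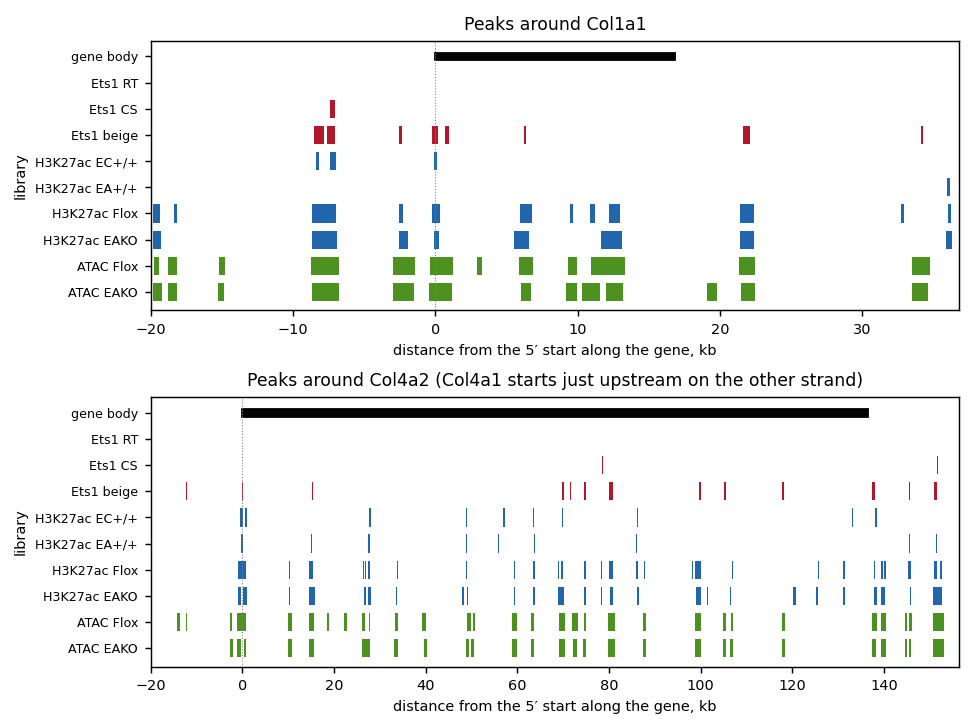
Peaks of the 9 libraries around Col1a1 (top) and Col4a2 (bottom), drawn as boxes by their distance in kb from the gene's 5′ start along the gene. Red is Ets1, blue H3K27ac and green ATAC, and the black bar is the gene body. Upstream of Col1a1 the cold-stress, beige, EC+/+, Flox and EAKO libraries all have a peak near 7.28 kb before the start, and EA+/+ has none there.

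Most Ets1 sites of beige adipocytes around collagen genes lay in chromatin that was open in tissue. Of the 160, 132 met a Flox ATAC peak (82.5%, interval 75.9 to 87.6%), beside 85.5% of all peaks of that list, and 122 met a Flox H3K27ac peak (76.2%), beside 77.4%. For cold stress 20 of 43 met a Flox ATAC peak (46.5%, interval 32.5 to 61.1%), beside 53.4%. As many, 20 of 43, met a Flox H3K27ac peak (46.5%), beside 64.3%. Of the 29 cold-stress peaks outside promoters, 6 met a Flox ATAC peak (20.7%), beside 19.3%. A Flox H3K27ac peak was met by 7 of the 29 (24.1%, interval 12.2 to 42.1%), beside 40.1%. Outside promoters the letters TGANTCA, which AP-1 factors bind, were under 32 of 124 beige summits around collagen genes (25.8%), beside 29.1% of all beige peaks outside promoters. The beige shares are close to those of all beige peaks.

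Open chromatin was more frequent at collagen promoters than at those of all genes, though weaker. In Flox ATAC 37 of 44 collagen promoters had a peak (84.1%, interval 70.6 to 92.1%), beside 67.7% of all genes, and in EAKO ATAC 36 had one (81.8%, interval 68.0 to 90.5%), beside 66%. All 11 fibrillar genes were open in both. Their −log10 q ran from 5.73 for Col11a2, whose partners are cartilage chains, to 67.2 for Col5a2 in Flox, and from 10.4 for Col11a2 to 43.5 for Col1a1 in EAKO. The median percentile of collagen promoters was 22.3 in Flox and 26.4 in EAKO, and the highest were Col8a2 at 57.6 in Flox and Col18a1 at 55.5 in EAKO. Of the basement membrane genes all but Col4a6 were open in both, led by Col18a1 at 82.4 and 59.8.

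H3K27ac at collagen promoters depended on which pair of lists was read. In Flox 35 of 44 had it (79.5%, interval 65.5 to 88.8%), beside 63.9% of all genes, and in EAKO 33 (75%, interval 60.6 to 85.4%), beside 60.5%. In EC+/+ 25 had it (56.8%, interval 42.2 to 70.3%), beside 52%, and in EA+/+ 18 (40.9%, interval 27.7 to 55.6%), beside 50.4%. The Flox and EAKO lists hold 86834 and 74682 peaks, against 33713 and 38484, so levels across the pairs are not comparable. The 16 genes acetylated in all 4 lists included Col1a2, Col5a3, Col27a1, both shared type IV promoters (Col4a1 with Col4a2, Col4a3 with Col4a4), Col16a1, Col8a2 and Col6a2. How many of all genes were acetylated in all 4 was not counted.

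The values given gene by gene are those of promoter peaks, so a gene without one can still have peaks elsewhere in its window. All 11 fibrillar promoters had H3K27ac in Flox and 10 had it in EAKO, against 8 in EC+/+ and 5 in EA+/+. For H3K27ac at Col1a1 the −log10 q was 3.27 in EC+/+, with no peak in EA+/+, 14.6 in Flox and 12.7 in EAKO, and for ATAC it was 34.6 in Flox and 43.5 in EAKO. Col1a2 had H3K27ac at 4.09 and 2.60 in EC+/+ and EA+/+ and at 20.6 and 35.04 in Flox and EAKO, and ATAC at 64.5 and 39.5. The type I partners thus shared their open state in both ATAC lists, and in EA+/+ Col1a2 alone had a promoter peak. That difference ended with peaks at q of 0.001 or less, where neither had one in EA+/+ and both had one in EC+/+.

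Col3a1 had no H3K27ac promoter peak in EC+/+, EA+/+ or EAKO and 6.03 in Flox, beside ATAC at 19.1 in Flox and 22.8 in EAKO. Its neighbour Col5a2, on the other strand, had none in EC+/+ and EA+/+, 16.0 in Flox and 25.2 in EAKO. Col5a1 had 4.06 in EC+/+ but none in EA+/+, and had 11.9 and 14.4 in Flox and EAKO. Col5a3 was the type V gene with a promoter peak in all 4 H3K27ac lists, at 1.91, 1.81, 28.4 and 33.4, the pair from EC+/+ and EA+/+ lying close to the limit of calling. Of the chains best known from cartilage, Col2a1 had 2.38, 3.01, 5.41 and 3.96 in the same order, and Col11a1 had none, none, 10.2 and 4.59. Col27a1 had 4.95, 2.90, 19.7 and 13.6, and Col24a1 had 2.54, 4.13, 12.1 and 13.8. Every fibrillar gene with a peak in EC+/+ other than Col1a1, Col5a1 and Col11a2 kept one in EA+/+.

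The basement membrane promoters with a peak in EC+/+ and EA+/+ had median percentiles of 57.5 and 64.3, beside 16.6 and 17.03 for fibrillar genes. These medians rest on 4 genes in EC+/+ and 5 in EA+/+, and since both type IV pairs share their peaks, on 2 and 3 distinct places. Col4a1 and Col4a2 share an H3K27ac peak at 7.45 (EC+/+) and 7.47 (EA+/+), and at 17.5 and 13.5 with the floxed allele and after its loss. Col4a3 and Col4a4, chains of a more restricted network best known from the kidney, share one at 6.24, 3.84, 12.6 and 7.97. In ATAC the order was the other way, with basement membrane medians of 17.9 in Flox and 12.7 in EAKO and fibrillar ones of 23.2 and 33.8. Col18a1 had no H3K27ac promoter peak in EC+/+ or EA+/+, and 43.0 in Flox and 43.1 in EAKO, the latter at percentile 75.8. Col15a1 had none in EC+/+ but 6.19 in EA+/+, and had 14.0 and 14.5 in Flox and EAKO, with ATAC at 22.2 and 17.7.

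Type VI collagen is built from Col6a1, Col6a2 and another chain. Col6a1 had no H3K27ac promoter peak in EC+/+ or EA+/+, 39.0 in Flox and 24.2 in EAKO, and Col6a2 had 3.18, 4.62, 36.6 and 40.0. Among the chains that can take that place, Col6a3 had 16.5 in Flox and 17.3 in EAKO, Col6a5 had 13.2 and 12.8, and Col6a6 had 11.6 and 8.45. Col6a4, the remaining member, had no H3K27ac promoter peak in any list. Of the other kinds, Col8a2 led Flox ATAC at 94.7 and Flox H3K27ac at 48.3, with 7.52 in EC+/+, 6.97 in EA+/+ and 23.4 in EAKO.

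In none of the 9 lists was there a promoter peak at Col4a6, Col9a3, Col10a1 or Col28a1. Col9a3 and Col10a1 are cartilage collagens. Col19a1, Col26a1 and Col6a4 were open at the promoter in Flox without an H3K27ac promoter peak in any list, and Col17a1, a transmembrane collagen of epithelia, had an H3K27ac promoter peak in Flox without an ATAC one. These sets were not counted over all genes.

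The median peak density differed among the kinds of collagen. Counted as peaks per 100 kb of gene body plus 20 kb on each side, the median over fibrillar genes in Flox ATAC was 12.9, over basement membrane genes 8.22 and over the others 6.97, beside 5.83 over all genes. In Flox H3K27ac the medians were 8.92, 10.0 and 6.72, beside 5.33. For Ets1 in beige adipocytes they were 3.63, 2.97 and 1.98, beside 2.04. In EC+/+ and EA+/+ H3K27ac the fibrillar medians, 2.07 and 1.55, were below those of all genes, 2.43 and 2.84. Within the kinds the spread was wide: fibrillar genes in Flox ATAC ran from 0.869 for Col11a1 to 21.1 for Col1a1, and basement membrane genes from 0.788 for Col4a5 to 17.6 for Col4a2. Of the other kinds the highest were Col8a2 (13.3), a network collagen, Col6a3 (12.7), Col7a1 (11.2), Col16a1 (10.9) and Col14a1 (10.3).

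**Figure D3:**
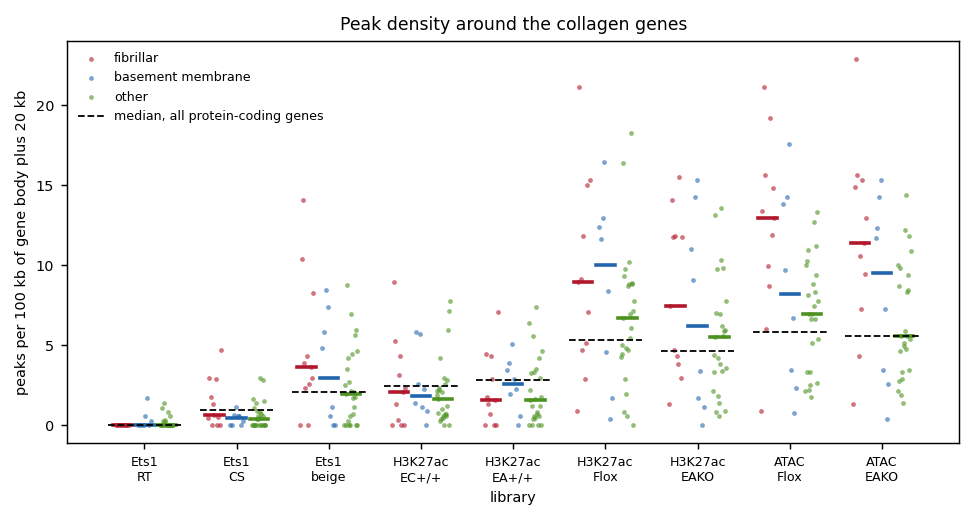
Peaks per 100 kb of gene body plus 20 kb on each side (vertical axis) for each collagen gene (points) in the 9 libraries, by kind. Coloured bars are the medians of the kinds and dashed lines the median of all protein-coding genes. In Flox ATAC the fibrillar median, 12.9, stands above the dashed line at 5.83, and in the EC+/+ and EA+/+ lists it stands below.

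The comparison of EA+/+ with EC+/+ asks how collagen acetylation differed when adipocytes carried extra Ets1. Of 26 collagen genes with a promoter H3K27ac peak in either, 17 had it in both (65.4%, interval 46.2 to 80.6%), beside 72.6% over all genes. In EC+/+ alone there were 8 (30.8%, interval 16.5 to 50.0%), beside 15%, and in EA+/+ alone 1 (3.85%, interval 0.682 to 18.9%), beside 12.4%. The genes acetylated in EC+/+ alone were Col9a2 (−log10 q 6.14), Col8a1 (5.69), Col5a1 (4.06), Col11a2 (3.33), Col1a1 (3.27), Col12a1 (2.85), Col13a1 (2.42) and Col20a1 (2.17). Of these 8, 3 are fibrillar. Col15a1 alone was acetylated in EA+/+ only, at 6.19 (percentile 64.3). This split rests on weak peaks. With peaks at q of 0.001 or less in both lists, 8 genes were in EC+/+ alone and 6 in EA+/+ alone, and with promoters of 3 kb they were 7 and 4. The progenitor markers had 6 promoter peaks in EC+/+ and 4 in EA+/+, and the part of such cells in the split was not tested.

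Around the collagen genes both lists had 113 H3K27ac peaks. Of those in EC+/+ 78 met no EA+/+ peak (69.0%, interval 60.0 to 76.8%), beside 53% around all genes, and of those in EA+/+ 79 met no EC+/+ peak (69.9%, interval 60.9 to 77.6%), beside 58%. More peaks than usual were thus found in 1 list only on either side, with no excess in a direction. For the basement membrane genes the counts were 17 of 31 (54.8%, interval 37.8 to 70.8%) and 16 of 29 (55.2%, interval 37.5 to 71.6%).

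The comparison of EAKO with Flox asks how collagen chromatin differed when adipocytes lost Ets1. For H3K27ac, of 36 collagen genes with a promoter peak in either, 32 had it in both (88.9%, interval 74.7 to 95.6%), beside 89.4% over all genes. In Flox alone there were 3 (8.33%), beside 7.89%: Col3a1 (−log10 q 6.03), Col23a1 (5.85) and Col4a5 (5.00), at percentiles of 12.6, 12.3 and 9.87. In EAKO alone there was 1, Col9a1 at 3.82 (2.78%, beside 2.66%). At Col3a1 and Col23a1 the nearest EAKO peak was 2.0 kb and 2.2 kb away, so acetylation was still close by. These shares are those of all genes.

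Around the collagen genes, 151 of 429 Flox H3K27ac peaks met no EAKO peak (35.2%, interval 30.8 to 39.8%), beside 34.2%, and 82 of 361 EAKO peaks met no Flox peak (22.7%, interval 18.7 to 27.3%), beside 25.2%. EAKO had fewer H3K27ac peaks around 30 of the 44 collagen genes, more around 8 and as many around 6. Over all 21938 genes it had fewer around 8717, more around 4300 and as many around 8921. The EAKO list is the shorter, at 74682 peaks against 86834. Around Col5a2 the count went from 12 to 5 and around Col4a4 from 15 to 6, while Col5a1 had 29 and 30 and Col6a3 12 and 16.

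For ATAC the lists were closer still. Of 37 collagen genes open in either, 36 were open in both (97.3%, interval 86.2 to 99.5%), beside 95.1%. In Flox alone there was Col6a4 (−log10 q 4.89, 2.7%), beside 3.71%, and in EAKO alone none, beside 1.14%. Of 479 Flox peaks around collagen genes 81 met no EAKO peak (16.9%, interval 13.8 to 20.5%), beside 15.7%, and of 449 EAKO peaks 46 met no Flox peak (10.2%, interval 7.77 to 13.4%), beside 8.96%. Around Col5a2 there were 25 peaks in Flox and 16 in EAKO, and around Col1a1 12 and 13.

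**Figure D4:**
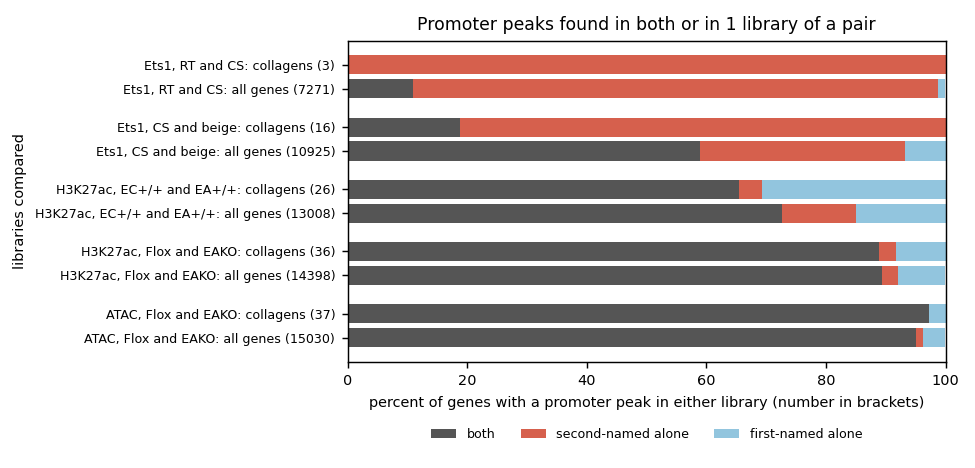
For each pair of libraries, the percent of genes with a promoter peak in either that had it in both (dark grey), in the second-named alone (red) or in the first-named alone (light blue), for collagens and for all protein-coding genes, with the number of genes in brackets. The collagen bars differ most from those of all genes in beige with CS (18.8% in both, beside 58.9%), and in Flox with EAKO they are nearly the same. For RT with CS the collagen bar holds 3 genes only.

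The genes that make and handle collagen had Ets1 at their promoters in a larger share than the collagens in each of the 3 lists, a difference that was not tested. Of 61 listed genes, 60 are in the annotation. Ets1 was at the promoters of 3 at room temperature (5%, beside 4.06% of all genes), 12 in the cold (20%, beside 32.7%) and 38 in beige adipocytes (63.3%, beside 46.4%). In beige adipocytes it was at 13 of 16 genes of modification and folding, 5 of 5 of secretion, 7 of 12 of trimming and cross-linking, 5 of 8 receptors, 5 of 9 fibril partners and 3 of 10 of breakdown. The strongest in beige adipocytes were Sec23a (−log10 q 90.6), a coat protein of the vesicles that carry procollagen out of the endoplasmic reticulum, Fkbp10 (82.3), a collagen chaperone, P4hb (76.4), P4ha2 (49.4) and P4ha1 (38.8), subunits of the prolyl hydroxylase that stabilises the helix, and Lox (71.6), which cross-links fibrils. Plod3 (44.3) and Colgalt1 (38.3) modify lysines of the chains, Serpinh1 (36.9) is the chaperone HSP47, and Timp1 (39.0) inhibits collagen-cutting proteases. Each of these 10 had a higher −log10 q than any collagen promoter, but they were picked for that value, so this does not describe the list. Among the 38, Bgn had 3.50 and Adamts14 5.02. P4hb, P4ha1 and Colgalt1 were the 3 with a peak at room temperature, at 5.31, 3.84 and 3.22.

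Between genotypes, 31 of 47 handling genes with an H3K27ac promoter peak in either list had it in both EC+/+ and EA+/+ (66%, beside 72.6% over all genes). In EC+/+ alone there were 9 (19.1%, beside 15%) and in EA+/+ alone 7 (14.9%, beside 12.4%). In Flox and EAKO 53 of 56 were in both (94.6%, beside 89.4%) and 3 in Flox alone (5.36%, beside 7.89%). For ATAC 56 of 57 were in both (98.2%, beside 95.1%) and 1 in Flox alone (1.75%, beside 3.71%). Among the genes named above, Serpinh1 and Fkbp10 were acetylated in EC+/+ and not in EA+/+, at a −log10 q of 4.29 and 3.68. Plod3 went the other way, with a peak in EA+/+ alone at 2.95.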

How the data were processed

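Mature adipocytes of inguinal white fat and cultured beige adipocytes were profiled by CUT&Tag (Ets1, H3K27ac) and ATAC-seq, 9 libraries in 9 groups. The authors trimmed reads with trimmomatic, aligned them to mm10 with BWA and called peaks with MACS2 at a q value below 0.05, and the submitters' notes also name SAMtools and deepTools. MACS2 ran with default parameters, and its control library is not given in the sources used here. The deposited peak lists give, for each peak, a fold enrichment over background (a ratio) and a −log10 q value. Peaks were called per library. The lists hold no read counts, and the read totals and tool versions that the study states were not used.

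The members and lists were chosen with earlier results of these data known. Start sites and gene bodies came from GENCODE M21 (GRCm38, the same build as mm10). With Python 3.11.15, numpy 2.4.6, pandas 2.3.3 and statsmodels 0.14.6 peaks were assigned to promoters (1 kb on each side of any start site) and gene windows (20 kb on each side), and to be shared if they overlapped a peak of the other list by at least 1 bp. The overlaps were tested on simulated data against bedtools 2.31.1. Sequences were read from the GRCm38 genome with pysam 0.24.0, and 1 promoter window is not reported here.

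Groups came from the labels, and each comparison describes 2 libraries with no test. The genes named are all fibrillar and basement membrane genes, all with an Ets1 promoter peak or a promoter peak in 1 library of a genotype pair, the 5 other collagens densest in Flox ATAC peaks, and the 10 handling genes with the strongest Ets1 promoter peaks. Col9a3, Col10a1, Col28a1, Col19a1, Col26a1, Col17a1 and the neighbouring genes were named after their values were seen. Alternatives changed the q limit, promoter width, flank, overlap, list size and start sites.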

Additional observations from a re-analysis of the deposited data

How the results depend on the processing

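Of 100 values recomputed under another setting, 90 stayed within 1.5 times the reported count or density, or within the interval of the reported percent, and 10 did not. With peaks at q of 0.001 or less, collagen promoters with H3K27ac in EC+/+ went from 25 to 16, those acetylated in EA+/+ alone from 1 to 6, and the median peaks per 100 kb to 0 for Ets1 in the cold, 0.741 for EC+/+ and 0.610 for EA+/+. With equal numbers of best peaks, no collagen promoter (0) was found in the cold alone, and 80% of the cold-stress peaks met no room temperature peak. With the gene body alone, the cold-stress median was 0 and 96.3% of beige peaks met no cold-stress peak. With promoters of 3 kb, 4 were acetylated in EA+/+ alone. No paired analysis was possible because each group has 1 library, and no replicate could be left out.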
